A study of Mus musculus with 6 samples.

Results

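Genes of glycolysis and of the hypoxia response were compared between p16+ and p16- stromal cells of injured mouse quadriceps. The set holds 30 genes chosen by symbol from general knowledge of both pathways, with earlier results of these data known. Of these, 20 are for glucose uptake, glycolysis, its regulation and lactate, and 10 for the hypoxia response. These symbols matched 31 of the 55536 gene identifiers in the count files, because Aldoa stands for 2 of them. Both groups were C57Bl/6 mice with a tdTomato reporter of p16, a cell cycle inhibitor taken as a sign of senescence, and each group had 3 libraries. Cells had been gated as CD45-, CD31- and CD29+, which leaves out leukocytes and endothelium, and the reporter-positive cells are the p16+ group. Per the labels' protocols, quadriceps muscle was cut out on both sides at 10 weeks of age, the animals received carprofen, and the gap was filled with polycaprolactone particles (30 mg), a decellularized matrix or 50 uL of saline, with harvest after 1 or 6 weeks. Series text places these cells in a model of fibrosis around a foreign body, while the filler and harvest time of each library are not given in the sources used here. What drives the reporter and whether replicates came from separate animals are not given either, so a p-value here reflects the spread among these libraries, which may be technical.

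Glycolysis splits glucose into pyruvate in the cytosol. Its first, preparatory steps spend ATP to make triose phosphates, and its later, payoff steps return ATP and NADH, after which lactate dehydrogenase turns pyruvate into lactate. When oxygen is scarce, the hypoxia-inducible factors HIF-1alpha and HIF-2alpha escape the prolyl hydroxylases that otherwise mark them for destruction, pair with ARNT and switch on genes that carry their core binding sequence. Their alpha subunits are controlled largely at the protein level, which RNA counts do not measure. Fibroblasts of healing wounds are known to use glycolysis while they make matrix.

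Library totals lay between 35253406 and 39103909 counts. The first principal component of log2 CPM, with 41.2% of the variance, separated the groups, and the second, with 18.1%, set p16+ replicates 2 and 3 apart. Cdkn2a, the gene of p16, had 6.905, 8.82 and 7.74 CPM in p16+ and at most 2.41 in p16-. These counts are of the whole gene and cannot tell the p16 transcript from its other transcripts. Stromal identity was clear in both groups: the collagen gene Col3a1 had at least 39040 CPM in every library. Values below are CPM, counts scaled to library size with TMM factors, and a difference passed where the adjusted p of edgeR's quasi-likelihood test, over the 15903 genes tested, was under 0.05.

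Of the 30 genes, 28 had enough counts to be tested. In p16+ cells 10 rose, 2 fell and 16 did not pass. Over all genes tested 16.7% passed, 8.69% higher and 8.04% lower in p16+. The median log2 fold change, p16+ over p16-, was 0.26 for the 28 members and -0.008 for all genes tested. Values of the 3 p16+ and 3 p16- libraries did not overlap for 18 of the 28, against 33.1% of all genes tested. Of the 19 tested glycolysis genes 8 rose (Slc16a3, Pfkl, Tpi1, Gapdh, Pgk1, Eno1, Pkm and Pfkfb3) and Pfkp fell. Of the 9 tested hypoxia genes 2 rose, those of the HIF alpha subunits, Hif1a and Epas1, and Adm fell. Of the 7 tested hypoxia-inducible genes, 0 rose by edgeR's test, 2 were higher at an unadjusted p under 0.05, and DESeq2 called 1 of them higher. For any single gene the exact two-sided permutation test of 3 against 3 libraries cannot go below p = 0.1.

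**Figure D1:**
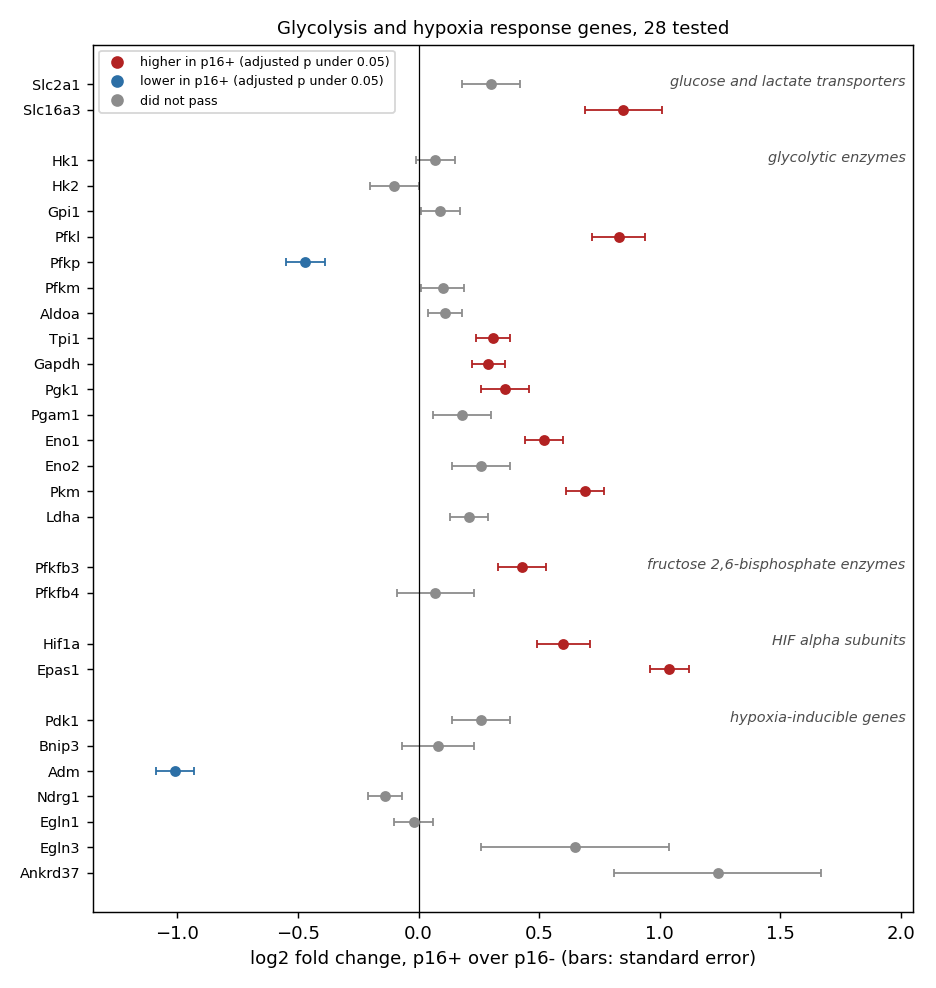
Log2 fold change, p16+ over p16-, of the 28 tested genes, grouped by role, with the standard error as bars; red points rose, blue points fell and grey points did not pass. Epas1 at 1.04 and Adm at -1.01 are the outermost genes that passed, and most glycolytic enzymes lie to the right of 0.

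Glucose enters through GLUT1, encoded by Slc2a1, and lactate leaves through MCT4, encoded by Slc16a3. Slc16a3 (chromosome 11, 120948480 to 120960868, GRCm38) had 13.4, 14.1 and 12.2 CPM in the p16+ libraries and 6.66, 8.70 and 6.67 in the p16- libraries. All p16+ values lay above all p16- values, and the gene rose 1.8-fold (log2 fold change 0.85 with SE 0.16, adjusted p = 0.00115). The level of Slc2a1 was 33.32, 28.15 and 34.98 CPM in p16+ and 26.8, 22.1 and 29.3 in p16-. These ranges overlap, since p16+ replicate 2 lies below p16- replicate 3, and the difference did not pass (log2 fold change 0.30 with SE 0.12, adjusted p = 0.103).

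Before a RefSeq start of Slc16a3 (GRCm38.p6) lies the following stretch, at chr11:120948817-120949052 on the plus strand. It falls inside the span of the gene given above, because that RefSeq start is downstream of the annotated one. The stretch is printed because this transporter had the largest fitted fold change of the glycolysis genes that passed. Here and in the sequences further on, bases run 5′ to 3′ toward the RefSeq start, and annotated exons are left out. Capitals mark ACGTG or GCGTG, the core forms that HIF binds, on either strand, where the other strand reads CACGT or CACGC.
Slc16a3: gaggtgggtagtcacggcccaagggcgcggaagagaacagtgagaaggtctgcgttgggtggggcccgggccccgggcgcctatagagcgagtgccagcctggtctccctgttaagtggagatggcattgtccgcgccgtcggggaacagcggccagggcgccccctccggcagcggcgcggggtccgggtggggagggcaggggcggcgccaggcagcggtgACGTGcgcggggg
This stretch holds 1 ACGTG and 0 GCGTG.

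Hexokinases trap glucose as glucose 6-phosphate, and neither of the 2 measured members differed at the threshold. Hk1 had 75.6 to 86.2 CPM in p16+ and 75.9 to 81.8 in p16- (adjusted p = 0.63). Hk2, the inducible form, had 100.5 to 120.3 CPM in p16+ and 105.1 to 136.4 in p16-, where replicate 1 was the high library (adjusted p = 0.609). Gpi1, which turns glucose 6-phosphate into fructose 6-phosphate, had 124.5 to 131.3 and 112.1 to 130.6 CPM (adjusted p = 0.524).

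Phosphofructokinase is the committed and most regulated step of the pathway, and its 3 isoform genes did not move together. The liver form Pfkl (chromosome 10, 77986947 to 78010083) had 36.2, 31.2 and 32.2 CPM in p16+ and 17.4, 19.9 and 18.7 in p16-, with no overlap. It rose 1.78-fold (log2 fold change 0.83 with SE 0.11, adjusted p = 3.97e-05). The platelet form Pfkp (chromosome 13, 6579768 to 6648777) had 69.6, 65.8 and 61.7 CPM in p16+ and 90.1, 88.3 and 94.4 in p16-. Every p16+ library lay below every p16- library, and Pfkp fell to 0.723 of the p16- level (log2 fold change -0.47 with SE 0.08, adjusted p = 0.0004). The muscle form Pfkm stood at 37.1 to 40.3 and 35.5 to 37.5 CPM (log2 fold change 0.10, adjusted p = 0.498), and 10.75% of its exonic length overlaps another gene.

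Scaled per length, so that genes can be set side by side, Pfkl made up 23.0% ± 0.8 of the summed phosphofructokinase level in p16+ and 13.6% ± 1.0 in p16- (SD, n = 3 each). The share of Pfkp was 22.7% ± 1.2 in p16+ and 33.1% ± 0.7 in p16-, and that of Pfkm 54.3% ± 1.6 and 53.3% ± 1.1. The summed level in FPKM, which is CPM divided by exonic length in kilobases, was 21.6 ± 0.987 in p16+ and 20.5 ± 0.299 in p16-. That length counts every annotated exon, 6675 bases for Pfkl, 13401 for Pfkp and 3340 for Pfkm, and can differ from the transcript that is made. Shares and totals of the isoforms depend on it, and by CPM alone Pfkp was the highest of the 3 in both groups. The opposite differences of Pfkl and Pfkp thus stood beside totals whose libraries overlap between groups. In p16+ the per-length levels of both isoforms were within their SD, at 4.97 ± 0.393 and 4.90 ± 0.294.

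**Figure D2:**
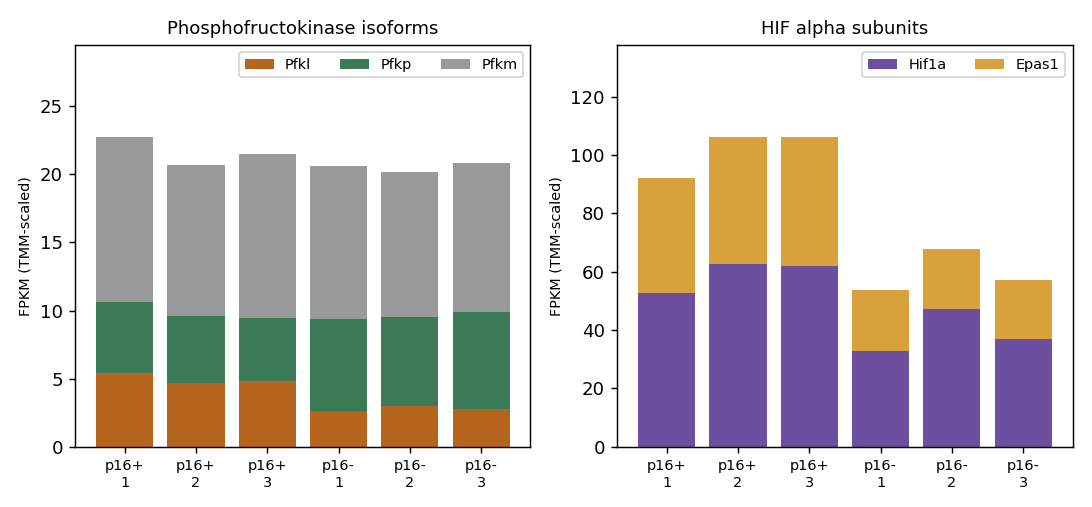
Per-length level, in FPKM, stacked for the 3 phosphofructokinase genes (left) and the 2 HIF alpha genes (right) in each of the 6 libraries. Phosphofructokinase bars have similar height with more Pfkl and less Pfkp in p16+; HIF alpha bars are higher in every p16+ library, at 92.2 or more against 67.8 or less.

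The promoter stretches of the pair are printed because the genes went in opposite directions. That of Pfkl lies at chr10:78009808-78010004 and that of Pfkp at chr13:6648778-6649021, both on the minus strand (RefSeq, GRCm38.p6). The Pfkl stretch falls inside the annotated span of the gene, before a RefSeq start that is downstream of the annotated one.
Pfkl: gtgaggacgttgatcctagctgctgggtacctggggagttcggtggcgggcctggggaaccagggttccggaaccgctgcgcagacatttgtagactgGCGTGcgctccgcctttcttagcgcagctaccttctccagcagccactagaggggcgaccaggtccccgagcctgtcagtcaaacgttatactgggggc
Pfkp: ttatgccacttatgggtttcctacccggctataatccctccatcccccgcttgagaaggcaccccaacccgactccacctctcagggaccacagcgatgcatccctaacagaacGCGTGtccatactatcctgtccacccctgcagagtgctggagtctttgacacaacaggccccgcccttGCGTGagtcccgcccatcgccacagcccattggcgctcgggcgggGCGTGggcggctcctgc
The Pfkl stretch has 1 GCGTG and the Pfkp stretch has 3, and neither has ACGTG.

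Aldolase cleaves fructose 1,6-bisphosphate and triose phosphate isomerase interconverts its products. Aldoa (ENSMUSG00000030695.16) had 333.7, 318.1 and 308.7 CPM in p16+ and 301.6, 293.9 and 292.2 in p16-. Groups did not overlap, yet the difference of 0.11 on the log2 scale did not pass (SE 0.07, adjusted p = 0.351). The second gene identifier of that symbol, ENSMUSG00000114515.2, had at most 0.984 CPM in any library and did not pass (adjusted p = 0.486). The brain aldolase gene Aldoc had 3 to 13 counts per library, 0.0825 to 0.349 CPM, and was too low to be tested. Tpi1 (chromosome 6, 124810586 to 124814296) had 144.6, 142.6 and 131.7 CPM in p16+ and 114.2, 114.5 and 109.5 in p16-. It rose 1.24-fold without overlap (log2 fold change 0.31 with SE 0.07, adjusted p = 0.00814). Without p16- replicate 3 its adjusted p was 0.052.

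Payoff enzymes follow, and 4 of the 6 measured genes rose. Gapdh (chromosome 6, 125161715 to 125166467), which oxidizes glyceraldehyde 3-phosphate and is often used as a reference gene, had 230.6, 237.2 and 221.8 CPM in p16+ and 187.4, 182.2 and 192.8 in p16-. It rose 1.23-fold (log2 fold change 0.29 with SE 0.07, adjusted p = 0.0105), and without p16+ replicate 2 its adjusted p was 0.0686. Phosphoglycerate kinase makes the first ATP of this phase. Its gene Pgk1 (chromosome X, 106187100 to 106203699) had 30.1, 33.3 and 34.7 CPM in p16+ and 27.2, 25.4 and 24.0 in p16-, a rise of 1.28-fold (log2 fold change 0.36 with SE 0.10, adjusted p = 0.0214). The call of Pgk1 was lost without p16+ replicate 2 (adjusted p = 0.0773), p16+ replicate 3 (0.0965) or p16- replicate 3 (0.0982), and when libraries were scaled by their totals alone (0.0669). Pgam1, the mutase gene, had 16.18 to 19.96 CPM in p16+ and 15.0 to 16.9 in p16- and did not pass (adjusted p = 0.384).

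Enolase makes phosphoenolpyruvate and pyruvate kinase makes pyruvate with the last ATP. Eno1 (chromosome 4, 150236721 to 150248879) had 119.8, 116.0 and 107.4 CPM in p16+ and 80.6, 83.0 and 76.3 in p16-. All p16+ libraries were higher, and the gene rose 1.43-fold (log2 fold change 0.52 with SE 0.08, adjusted p = 0.000162). Eno2, the neuronal form, had 29.9, 39.5 and 33.5 CPM in p16+ and 29.9, 31.7 and 24.1 in p16- (log2 fold change 0.26 with SE 0.12, adjusted p = 0.175). Pkm (chromosome 9, 59656368 to 59679375) had 404.4, 400.0 and 397.5 CPM in p16+ and 241.5, 263.6 and 240.2 in p16-. This was the largest rise among the payoff enzymes, 1.61-fold (log2 fold change 0.69 with SE 0.08, adjusted p = 8.79e-06). Counts per gene cannot tell the PKM1 and PKM2 splice forms apart, and 15.34% of the exonic length of Pkm overlaps Gm49759 on the same strand.

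Ldha, which encodes the lactate dehydrogenase subunit that favours lactate, had 331.6, 334.8 and 347.6 CPM in p16+ and 320.2, 284.3 and 269.7 in p16-. No p16+ library was below a p16- library, but p16- replicate 1 came close and the difference did not pass (log2 fold change 0.21 with SE 0.08, adjusted p = 0.0892). It did pass without p16- replicate 1 (0.00562) and with DESeq2 (0.0372). PFKFB3 and PFKFB4 set the level of fructose 2,6-bisphosphate, the activator of phosphofructokinase. Pfkfb3 (chromosome 2, 11471433 to 11554077) had 33.9, 38.1 and 35.7 CPM in p16+ and 28.2, 26.1 and 25.5 in p16-, and rose 1.35-fold (log2 fold change 0.43 with SE 0.10, adjusted p = 0.00463). Pfkfb4 overlapped, at 12.4 to 15.6 CPM in p16+ and 10.6 to 15.8 in p16- (adjusted p = 0.825).

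**Figure D3:**
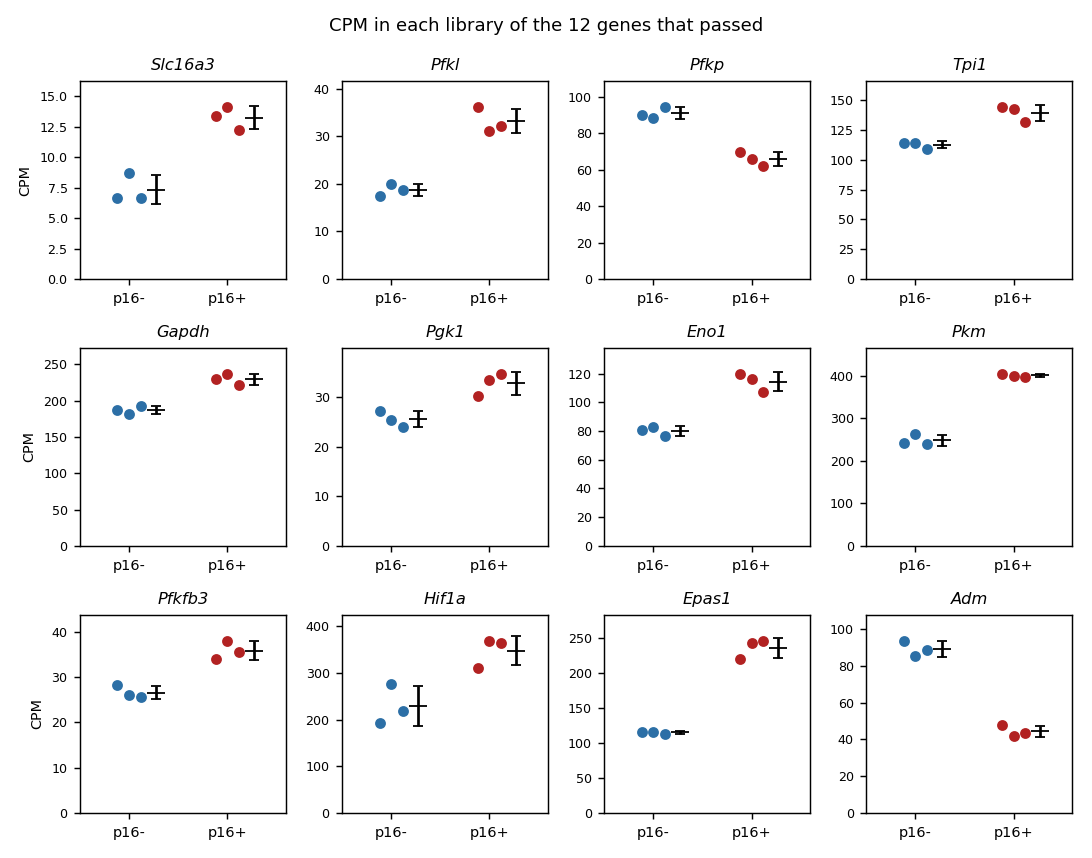
CPM in each library (points, replicates 1 to 3 from left to right) of the 12 genes that passed, with the mean and SD of each group as a bar; each axis starts at 0. In none of the 12 panels do the p16+ and p16- points overlap, and Hif1a has the widest spread for its level in p16-.

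By position in the pathway, a split made after the values were seen, 2 of the 8 tested genes from hexokinase to Tpi1 rose and 1 fell, with a median log2 fold change of 0.09. From Gapdh to Pkm 4 of 6 rose, with a median of 0.33, and 0 fell by edgeR, at an unadjusted p under 0.05 or by DESeq2. The summed CPM of the preparatory genes was 895.2 to 940.1 in p16+ and 848.9 to 904.7 in p16-, which overlap. That of the payoff genes was 811.2 to 846.0 in p16+ and 574.3 to 600.8 in p16-, which do not. Pkm alone gave 397.5 to 404.4 CPM of the payoff sum in p16+ and 240.2 to 263.6 in p16-, while Pgam1 and Eno2 overlapped between groups. The difference between the phases was not tested. Without p16+ replicate 2 the count for the payoff genes was 2, and without p16- replicate 3 that for the preparatory genes was 1.

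Several glycolytic genes have processed pseudogenes, and reads that map to several places are not counted under the defaults of the counting program. Of the distinct 50-base windows of its transcripts, Pgk1 shares 53.9% with another annotated gene, Bnip3 47.2%, Pgam1 36.2%, Eno1 26.0%, Pkm 25.8%, Gapdh 25.1%, Ankrd37 17.0% and Gpi1 15.8%. For each of the other members the share was under 10%. Levels of these 8 genes are therefore uncertain, including the 4 that rose. Windows of every annotated transcript are counted, so the share for the transcript that is made can be larger or smaller. The deposited counts are of read pairs, and a pair with a shared read may still be placed by its other read. A share of windows is thus not the share of fragments lost. Part of the sharing is with genes that overlap the member itself. Lrp2bp holds 253 of the 261 shared windows of Ankrd37, and Gm49759 holds 623 of the 1323 of Pkm. Pfkl, Pfkp, Slc16a3, Pfkfb3, Tpi1, Adm, Hif1a and Epas1 share at most 5.7%.

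The HIF alpha subunit genes both rose. Hif1a (chromosome 12, 73901375 to 73947530), whose protein drives much of the glycolytic response to hypoxia, had 311.5, 369.1 and 363.7 CPM in p16+ and 193.7, 277.3 and 217.6 in p16-. The groups did not overlap, although p16- replicate 2 stood apart from its group on the high side, and Hif1a rose 1.52-fold (log2 fold change 0.60 with SE 0.11, adjusted p = 0.0014). Epas1 (chromosome 17, 86753700 to 86833410), the gene of HIF-2alpha, had 219.9, 243.3 and 246.5 CPM in p16+ and 116.0, 115.9 and 113.4 in p16-. Its p16- libraries lay close together and far below those of p16+, and it rose 2.06-fold (log2 fold change 1.04 with SE 0.08, adjusted p = 2.17e-07). Per length, the sum of both was 101 ± 7.97 FPKM in p16+ and 59.5 ± 7.36 in p16-. Epas1 gave 41.8% ± 0.8 of that sum in p16+ and 34.9% ± 4.1 in p16- (SD, n = 3 each).

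Among genes that HIF is known to induce, Adm (chromosome 7, 110627661 to 110629820), which encodes the vasodilator peptide adrenomedullin, had 47.8, 41.9 and 43.5 CPM in p16+ and 93.7, 85.5 and 88.4 in p16-. The p16+ libraries were all far below, at 0.498 of the p16- level (log2 fold change -1.01 with SE 0.08, adjusted p = 4.94e-07). Bnip3, a mitophagy receptor gene, had 12.0, 10.9 and 14.9 CPM in p16+ and 12.7, 10.9 and 12.3 in p16-. These overlap throughout (log2 fold change 0.08 with SE 0.15, adjusted p = 0.789), and 22.25% of its exonic length overlaps another gene.

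Promoter stretches of Adm, at chr7:110627407-110627656 on the plus strand, and Bnip3, at chr7:138909520-138909756 on the minus strand, are printed to set a hypoxia-inducible gene that fell beside one that did not pass (RefSeq, GRCm38.p6).
Adm: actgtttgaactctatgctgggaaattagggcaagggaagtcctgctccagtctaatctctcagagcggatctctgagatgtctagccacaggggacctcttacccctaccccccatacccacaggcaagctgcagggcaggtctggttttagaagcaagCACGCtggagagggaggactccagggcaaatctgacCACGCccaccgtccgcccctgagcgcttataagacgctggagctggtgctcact
Bnip3: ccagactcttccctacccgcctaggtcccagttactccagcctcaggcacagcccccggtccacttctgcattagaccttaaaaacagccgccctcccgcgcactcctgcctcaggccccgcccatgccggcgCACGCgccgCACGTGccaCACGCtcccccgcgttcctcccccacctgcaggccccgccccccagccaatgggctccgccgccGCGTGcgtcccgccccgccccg
In these stretches Adm has 2 GCGTG and 0 ACGTG, and Bnip3 has 3 GCGTG and 2 ACGTG, the latter from a single CACGTG, which reads ACGTG on both strands.

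Pdk1, whose kinase shuts pyruvate dehydrogenase, had 19.4, 24.2 and 21.4 CPM in p16+ and 17.1, 19.2 and 18.0 in p16- (log2 fold change 0.26 with SE 0.12, adjusted p = 0.163). Ndrg1, a stress-induced gene, had 103.4 to 108.9 CPM in p16+ and 112.0 to 119.0 in p16-, all p16+ values being lower (log2 fold change -0.14 with SE 0.07, adjusted p = 0.22). With library totals alone as the scale Ndrg1 was called lower (0.0467). The prolyl hydroxylase genes Egln1 and Egln3 form a feedback on HIF. Egln1 had 51.2 to 56.6 CPM in p16+ and 51.5 to 57.3 in p16- (adjusted p = 0.904), and Egln3 1.32 to 2.10 and 1.08 to 1.16 CPM (log2 fold change 0.65 with SE 0.39, adjusted p = 0.313).

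Ankrd37, an ankyrin repeat gene induced by HIF, had 104, 52 and 70 counts in p16+ and 28, 30 and 46 in p16-, or 2.86, 1.42 and 2.04 against 0.688, 0.757 and 1.24 CPM. Its groups did not overlap, and with so few counts the log2 fold change of 1.24 carried an SE of 0.43 (adjusted p = 0.0604). It passed with a stricter filter (0.0466), with DESeq2 (0.0274) and without p16+ replicate 2 (0.0461), and 26.38% of its exonic length overlaps other genes. Car9, the carbonic anhydrase gene widely used as a hypoxia marker, had 2 to 14 counts per library, 0.0584 to 0.385 CPM, and could not be tested.

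Compared per length, the members spanned over a wide range. The length counts every annotated exon and can differ from the transcript that is made, so the order of genes is approximate. In p16+ cells Aldoa (110.0 ± 4.33 FPKM), Ldha (102 ± 2.57), Pkm (80.1 ± 0.689), Hif1a (59.0 ± 5.4) and Gapdh (55.6 ± 1.87) were the most abundant. In p16- cells Aldoa (102 ± 1.72) and Ldha (88.0 ± 7.85) also led, followed by Adm (55.1 ± 2.55), Pkm (49.7 ± 2.62) and Gapdh (45.4 ± 1.28). Adm stood at 27.4 ± 1.86 in p16+. Since fragments that map to several places are not counted, the levels of Pkm and Gapdh may be too low beside that of Adm, which shares 0% of its windows, and their order in p16- is not certain. The lowest tested members were Egln3 and Ankrd37, at 0.651 ± 0.147 and 1.37 ± 0.471 in p16+.

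Genes of neighbouring pathways showed calls in both directions. Counts in these and the following lists stand beside 16.7% of all genes tested that passed, 8.69% higher and 8.04% lower. No list was tested as a set. Among 16 tested isoforms and transporters of glycolysis outside the set, 3 rose and 1 fell. Bpgm, which makes 2,3-bisphosphoglycerate, rose from 15.3 ± 2.0 to 24.6 ± 1.29 CPM (adjusted p = 0.000837), Slc16a1, the gene of the lactate transporter MCT1, from 82.0 ± 9.8 to 109.2 ± 15.9 CPM (0.0143) and the glucose transporter gene Slc2a10 from 34.7 ± 3.2 to 43.3 ± 1.55 CPM (0.026). Slc16a7, the gene of the related transporter MCT2, fell from 3.54 ± 0.44 to 1.27 ± 0.352 CPM (0.00392). The calls of Slc2a10 and Slc16a1 were both lost without p16+ replicate 2 (0.0741 and 0.0686) or p16+ replicate 3 (0.0566 and 0.107), that of Slc2a10 also without p16+ replicate 1 (0.0956) or p16- replicate 1 (0.0787) and that of Slc16a1 without p16- replicate 3 (0.0899). Of 13 gluconeogenesis and glycogen genes 1 rose and 2 fell: Gys1, glycogen synthase, rose from 11.8 ± 0.29 to 16.6 ± 0.595 CPM (0.00972), while Ugp2, which makes UDP-glucose, fell from 158.8 ± 4.39 to 120.8 ± 7.23 CPM (0.00159) and the glycogen phosphorylase gene Pygl from 68.6 ± 3.27 to 55.0 ± 3.44 CPM (0.011). Pygl lost its call without p16+ replicate 3 (0.0619) or p16- replicate 3 (0.0717).

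The pentose phosphate pathway takes glucose 6-phosphate away from glycolysis to make NADPH and ribose. Of its 8 genes G6pdx, the cytosolic entry enzyme, fell from 50.5 ± 4.37 to 39.7 ± 2.35 CPM (adjusted p = 0.0136) and Rpia from 18.5 ± 1.59 to 14.3 ± 0.471 CPM (0.0451). H6pd, the counterpart in the endoplasmic reticulum, rose from 107 ± 3.58 to 161.9 ± 17.4 CPM (0.000129), and 5 did not pass. Of G6pdx 13.57% of the exonic length overlaps Ikbkg on the opposite strand. With p16+ replicate 2, p16+ replicate 3 or p16- replicate 3 left out, neither G6pdx (0.0761, 0.0549 and 0.103) nor Rpia (0.135, 0.105 and 0.198) passed, and Rpia also failed without p16+ replicate 1 (0.0777) or p16- replicate 2 (0.107). Of 12 genes for pyruvate entry into mitochondria 0 rose, also at an unadjusted p under 0.05, by edgeR or by DESeq2, and 2 fell: Pdk4, a kinase that shuts pyruvate dehydrogenase, from 16.8 ± 2.29 to 8.67 ± 0.93 CPM (0.000243), and Pdhb, a subunit of that dehydrogenase, from 56.5 ± 1.59 to 47.9 ± 1.41 CPM (0.0483). Pdk4 kept its call in every fit with 1 library left out, and Pdhb in none of them (adjusted p from 0.0641 to 0.143).

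No call was made among the 17 genes of the tricarboxylic acid cycle, where edgeR gave 3 genes an unadjusted p under 0.05, all higher in p16+, and DESeq2 and limma-voom called 0. Ogdh, the most abundant, had 160.4 to 163.5 CPM in p16+ and 132.1 to 152.6 in p16- (adjusted p = 0.174). Without p16- replicate 1, 1 cycle gene was called higher. Likewise 0 of 16 other HIF pathway components passed, with 1 lower at an unadjusted p under 0.05 by edgeR and 0 called by DESeq2 or limma-voom. Without p16- replicate 1, 1 of these was called higher, and without p16+ replicate 1, 1 was called lower. Arnt, the partner of both alpha subunits and the most abundant of them, had 105.6 to 124.2 CPM in p16+ and 115.9 to 118.9 in p16- (adjusted p = 0.734).

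A second list of 35 hypoxia-inducible genes, outside the set, went both ways: 12 rose, 4 fell and 19 did not pass, with a median log2 fold change of 0.18. Among those that rose were Ddit4, P4ha1, P4ha2, Plod1, Plod2, Lox, Loxl2, Bhlhe40, Mif, Angptl4 and Gys1, of which P4ha1, P4ha2, Plod1, Plod2, Lox and Loxl2 encode enzymes that modify or crosslink collagen. Bhlhe40 lost its call without p16+ replicate 1, 2 or 3 or p16- replicate 3 (adjusted p from 0.058 to 0.208), Plod2 without p16+ replicate 2 or 3 or p16- replicate 3 (0.0606 to 0.0666) and Loxl2 without p16+ replicate 2 (0.079). Ddit4, an inhibitor of mTOR signalling, had 91.0, 105.4 and 97.5 CPM in p16+ and 49.2, 54.2 and 43.1 in p16-, a 2.01-fold rise (adjusted p = 1.69e-06). Angptl4, a lipoprotein lipase inhibitor gene, had 256.5 to 298.6 CPM in p16+ and 142.1 to 154.0 in p16-, a 1.85-fold rise (adjusted p = 2.01e-06). Vegfa, the angiogenic factor, had 64.2 to 76.7 CPM in p16+ and 112.1 to 153.3 in p16-, a fall to 0.5 of the p16- level (adjusted p = 9.15e-06). Edn1, the endothelin 1 gene, Vldlr, a lipoprotein receptor gene, and Wsb1 also fell, by 1.13, 0.76 and 0.55 on the log2 scale. Edn1 and Vegfa, like Adm, encode secreted factors that act on blood vessels, a grouping made after their values were seen.

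**Figure D4:**
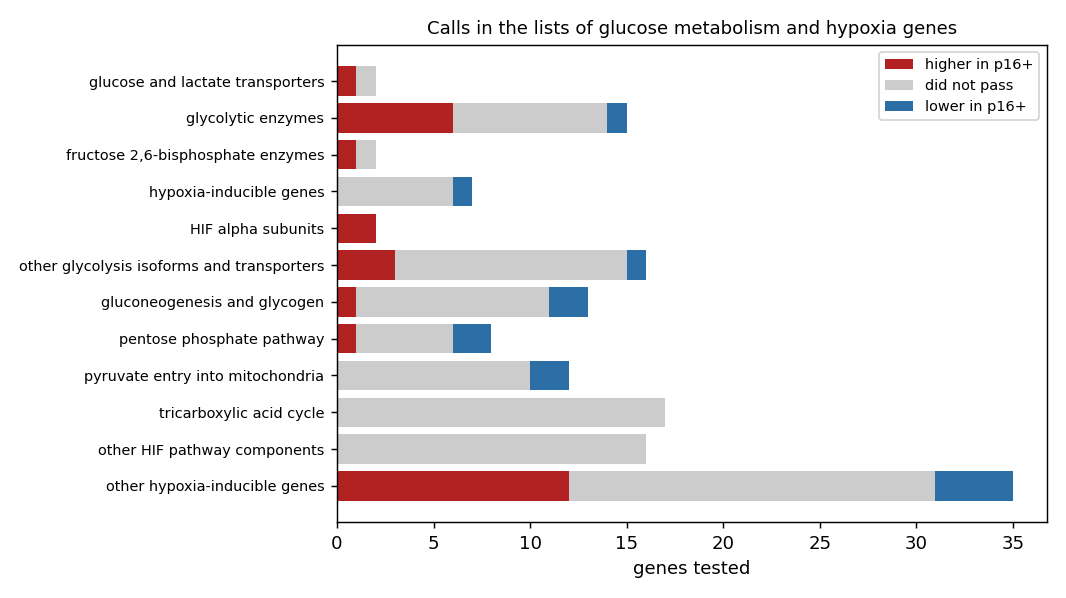
Number of tested genes in each list that rose (red), did not pass (grey) or fell (blue) in p16+ cells. The first 5 bars hold the 28 tested members; the tricarboxylic acid cycle and other HIF components have no coloured part, and the 35 other hypoxia-inducible genes have 12 red and 4 blue.

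Markers of some other cell types differed between the groups, and those of others did not pass. Of 15 leukocyte markers, which the gate would remove, 8 rose, with a summed level of 338.3 to 392.2 CPM in p16+ and 237.9 to 267.3 in p16-, led by Lyz2. Ptprc, the gene of CD45, had 5.37 to 9.77 CPM in p16+ and 4.14 to 5.93 in p16- (log2 fold change 0.67, adjusted p = 0.0602), and passed as higher in 6 of 14 alternatives, among them DESeq2 (0.0387). Of 9 endothelial markers 4 rose and Tek fell, by 1.77 on the log2 scale (adjusted p = 5.24e-08). Their sum was 71.3 to 100.3 CPM in p16+ and 175.2 to 207.3 in p16-, and without Tek it was 28.4 to 42.4 CPM in p16+ and 22.0 to 27.0 in p16-, and 2 rose without p16+ replicate 3. Pericyte and smooth muscle markers, led by Rgs5, rose in 7 of 10, with sums of 2052 to 2135 CPM in p16+ and 1359 to 1725 in p16-. Satellite cell markers, led by Vcam1, rose in 3 of 7 (1 without p16+ replicate 1), with sums of 278.7 to 314.0 and 181.9 to 203.5 CPM. Glial markers, led by Mbp, fell in 5 of 7, from 88.0 to 152.4 summed CPM in p16- to 50.0 to 60.6 in p16+. Markers of muscle fibres, cells rich in glycolytic enzymes, with Acta1 the most abundant, passed in 0 of 14 by edgeR, at an unadjusted p under 0.05 or by DESeq2, with sums of 35.9 to 50.1 CPM in p16+ and 33.6 to 48.5 in p16-. Stromal markers rose in 6 of 9, with sums of 152500 to 160000 CPM in p16+ and 90220 to 107900 in p16-. Col3a1 was among those that rose (log2 fold change 0.623, adjusted p = 0.000156). Neutrophil markers, led by S100a9, summed to 7.98 to 8.79 CPM in p16+ and 6.51 to 7.13 in p16-, with Mmp8 higher among 4 tested, a call lost without p16+ replicate 2. Lymphocyte markers, led by Cd79a, summed to 0.413 to 1.34 and 0.0983 to 0.202 CPM, and the 1 tested did not pass. Of 5 tested erythroid markers, led by Hbb-bs, all had values below 0 on the log2 fold scale and Alas2 was called lower (2 by DESeq2, and 0 to 3 with 1 library left out), with sums of 26.1 to 45.6 CPM in p16+ and 36.7 to 119.3 in p16-. Adipocyte markers, led by Fabp4, and epithelial markers, led by Cdh1, summed to at most 51.2 and 1.5 CPM in any library, and edgeR called 0 in either, with 2 and 1 lower at an unadjusted p under 0.05 and 1 adipocyte marker called lower by DESeq2. The part of these cell types in the differences of glycolysis and hypoxia genes was not tested, and in bulk samples fewer cells of a type and less RNA per cell cannot be told apart.

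RefSeq's promoter table matched 28 of the 30 symbols, not Epas1 and Ndrg1, with 41 windows. In the 250 bases before the start, on both strands, ACGTG stood in 46.3% of these windows, in 20.7% of the windows of tested genes and in 16.6% of all 32851. For GCGTG the shares were 51.2%, 42.4% and 28.2%, and for either motif 80.5%, 53.3% and 38.6%. Some members were chosen because HIF is known to induce them, so these shares cannot serve as a test. Windows of the same gene can overlap, as for Eno1 and Aldoa, and a site can then count in several windows. Ldha had the most ACGTG matches in a window, 5, where a CACGTG counts on both strands. Of the genes that passed, Hif1a has 3, Pgk1, Pfkfb3 and Slc16a3 have 2 in a window, Pkm has 1, and Adm, Pfkl, Pfkp, Tpi1, Gapdh and Eno1 have 0. A match is a description of letters and not of binding.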

How the data were processed

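Bulk RNA-seq libraries of 3 p16+ and 3 p16- samples were analysed. Per the file headers, the authors ran featureCounts 1.6.0 over GENCODE vM21 exons with no strand option, and the deposited unit is whole counts of read pairs for each gene. The same deposited files list exonic length, used here for per-length levels. STAR 2.7.3a and the build GRCm38.p6 are named in the submitters' processing notes, and the labels' protocols name a library kit that does not mark strand. Fragments in overlaps of genes on opposite strands cannot be assigned.

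Symbols were taken from vM21, which matched all 55536 identifiers. Genes were filtered with filterByExpr, leaving 15903, scaled by TMM and tested in edgeR 4.0.16 (R 4.3.3; quasi-likelihood F test, group as the only term), with Benjamini-Hochberg adjustment over all genes tested and a threshold of 0.05. The common biological coefficient of variation was 0.158. CPM are given as values per library or as mean ± SD over 3. A count of 3 corresponds to 0.0767 to 0.0851 CPM, a floor that covers counting error only. The test was also run on simulated counts with the same dispersion for all genes and independent libraries. That setting is simpler than these data, so the run cannot give the error rate here. Alternatives were RLE and upper-quartile factors, library sizes alone, no filter, a stricter filter (CPM of at least 1 in 3 libraries), DESeq2 1.42.0, limma-voom (limma 3.58.1), the replicate number as a block, and leaving out each library.

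The members and the lists were chosen with earlier results of these data known. All members are named. From every other pathway list up to 4 genes with the smallest p that passed are named, or the most abundant gene where none passed; from marker lists the gene with the highest mean CPM; and genes that overlap a member. Cdkn2a, Ptprc, Mmp8, Alas2, further hypoxia-inducible genes that passed and Ikbkg are named outside this rule, after their values were seen. Values of some genes in the lists are not reported here.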

Additional observations from a re-analysis of the deposited data

How the results depend on the processing

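Of 392 member fold changes under 14 alternatives, 370 kept their direction and their side of the threshold, 6 lost the call, 8 gained it and 8 changed sign, all of the last in genes that did not pass. With library sizes alone the log2 fold changes were -0.00634 for Hk1 and -0.00353 for Pfkfb4. With 1 library left out at a time, Hk2 ranged from -0.178 to 0.0417, Pfkfb4 from -0.0672 (without p16- replicate 1; -0.0261 without p16+ replicate 1) to 0.224, Bnip3 from -0.059 to 0.171 and Egln1 from -0.0624 to 0.0206 (0.00929 without p16+ replicate 1). With library sizes alone 2 hypoxia genes were called lower in place of 1, Ndrg1 being added. That scaling moved the median log2 fold change of all genes to -0.083, and 36.0% of called genes were higher in place of 52.0%. The causes were not tested. Calls in the neighbouring pathways that 1 library decides are given beside them.

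Without 1 library each, 1887 to 2567 genes passed in all and 6 to 9 glycolysis members rose. Same-numbered libraries correlated at 0.028, 0.082 and -0.005 in their deviations from the group means. The value for replicate 2 was the highest of all pairs, while p16+ replicate 1 correlated best with p16- replicate 3 (0.039). With 3 libraries per group, values this small cannot decide whether the numbers pair the samples. With the replicate block 3114 genes passed and 10 glycolysis members rose, Slc2a1 (adjusted p = 0.0319) and Ldha (0.0428) being added. Aldoc and Car9 had at most 14 counts in any library and were not tested.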
